A study of Mus musculus with 4 samples.

Results

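The genes described here are 10 immediate early genes of the mouse. They are the zinc finger transcription factors *Egr1*, *Egr2* and *Egr3*, the orphan nuclear receptors *Nr4a1*, *Nr4a2* and *Nr4a3*, the immediate early response genes *Ier2*, *Ier3* and *Ier5*, and *Zfp36*, which encodes the mRNA-destabilizing protein tristetraprolin. They were chosen by name, and every non-control probe that the array annotation gives one of these names was taken. This gave 12 of the 39429 probes of the array, 2 each for *Ier5* and *Nr4a2* and 1 for each of the other genes. The accessions of all 12 probes matched the same symbols in RefSeq.

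RNA came from NIH-3T3:Per2-Luc, mouse fibroblasts that harbor a luciferase reporter driven by the *Per2* promoter. Control cells (0 mM H2O2) were given fresh medium without H2O2, and their label places them at 4 h. The other cells were cOS-pulsed, that is, exposed to a critical oxidative stress of 5 mM H2O2 for 10 min, and RNA was taken 4 h, 20 h or 32 h later. Each condition was 1 array, and the 4 arrays were on 1 slide. Without replicates no test could be done and no p-value is given, and the precision is that of a single array. All time points were set against the same control array, so these comparisons share it. At 20 h and 32 h, the pulse and the hours since the change of medium cannot be told apart.

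Immediate early genes are transcribed within minutes of a stimulus without new protein synthesis, by factors already present in the cell, such as serum response factor (SRF) with its ETS partners, and CREB. Their mRNAs are mostly short-lived, so that levels fall back soon after the stimulus ends. In fibroblasts they are best known for the response to serum and growth factors, and fresh medium is a stimulus of this kind.

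The cells carried the marker mRNAs of fibroblasts. Of 12 fibroblast markers, 11 were well above background on each of the 4 arrays, and *Fap* was on no array. The summed level of the list, in units of the 75th percentile of the array, was 1124 in the control and 1139, 976 and 1077 at 4 h, 20 h and 32 h, and its brightest probe was that of *Dcn*. Signals of different probes do not compare as mRNA amounts, so such sums mostly follow the brightest probes. The median log2 difference of the 11 measured markers was -0.38 at 4 h, with 2 at least 2-fold lower, and -0.28 at 20 h, with 3 at least 2-fold lower. Markers of other cell types were detected in part. For leukocytes, 3 of 6 genes were above background on each array, with summed levels of 21.4 in the control, then 32.8, 11.8 and 12.2 at the 3 times. The brightest probe was that of *Itgam*, whereas *Ptprc* and *Emr1* were on no array above background. For epithelial cells, 2, 3, 3 and 2 of 6 genes were above background, with *Krt8* the brightest, and with summed levels of 0.703, 1.46, 0.849 and 0.813, and *Epcam* and *Cdh1* on no array. The endothelial list had 3, 4, 3 and 2 of 5 genes above background with summed levels of 3.23, 4.38, 4.24 and 4.14, with *Kdr* the brightest and *Tek* on no array. The neuronal list had 3, 3, 3 and 2 of 4 genes with summed levels of 15.4, 22.6, 8.13 and 8.50, with *Snap25* the brightest. The adipocyte list had 2, 3, 2 and 2 of 5 genes with summed levels of 0.212, 0.599, 0.175 and 0.191, and at 4 h *Fabp4* was 2.14 higher on the log2 scale and *Adipoq* at least 3.63-fold higher than the control. None of the 5 skeletal muscle markers was above background on any array, and their summed levels were 0.0504, 0.0471, 0.0409 and 0.0539. Single markers of the other lists were also at least 2-fold higher at 4 h, *Cd68* (2.08), *Cdh5* (1.87), *Krt8* (1.17) and *Vwf* (at least 2.33-fold). At 20 h *Rbfox3* was at least 5.33-fold higher, and *Fabp4* (-1.04) and *Snap25* at least 2-fold lower. The part of these levels in the results was not tested.

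At 4 h after cOS-pulse, most of the immediate early genes stood above the control, and by 20 h most had returned near it. 8 of the 12 probes, from 7 genes, stood at least 2-fold above the control at 4 h, against 6.77% of all probes on the array. The count depended on the scaling. It was 5 with the median (against 3.54% of all probes) or no scaling (4.06%), and 4 with the spike-in controls (3.33%). Of all called probes, 57.8% were higher at 4 h, and 25.6% with the spike-in controls. The 7 genes were *Egr1*, *Ier2*, *Ier3*, *Ier5*, *Nr4a1*, *Nr4a2* and *Zfp36*. None of the 12 probes was at least 2-fold lower, against 4.94% of all probes. *Egr3* and *Nr4a3* gave no ratio at 4 h, since their signals were not well above background in the control or at 4 h. Over the 10 probes with a measured difference, the median log2 difference was 1.27, and over all 20392 measured probes it was 0.17.

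At 20 h, 2 of the 12 probes, those of *Egr1* and *Egr2*, lay at least 2-fold below the control, against 1.87% of all probes. None was at least 2-fold higher, against 0.763%. The same genes were the 2 called lower at 32 h, against 1.43% of all probes, and again none was higher, against 1.15%. The median log2 difference of the 10 measured probes was -0.17 at 20 h and -0.22 at 32 h, beside -0.0034 and -0.0062 over all measured probes.

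Set directly against 4 h, 7 of the 12 probes had dropped at least 2-fold by 20 h, against 9.15% of all probes. They were the probes of *Egr1*, *Egr2*, *Ier2*, *Ier3* and *Nr4a1*, and 1 probe each of *Ier5* and *Nr4a2*. None was at least 2-fold higher, against 5.55%. These counts depended on the scaling. The 7 became 4 with the median or the spike-in controls and 3 with no scaling, and *Egr3* became at least 2-fold higher with each of these. With the median as scale 11.5% of all probes were higher and 4.47% lower. All 10 probes with a measured difference between these arrays were lower at 20 h, with log2 differences from -3.42 to -0.79 and a median of -1.34, beside -0.20 over all 20852 measured probes. Between 20 h and 32 h no member probe differed at least 2-fold, against 1.56% of all probes, and the 10 measured differences lay between -0.26 and 0.26.

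**Figure D1:**
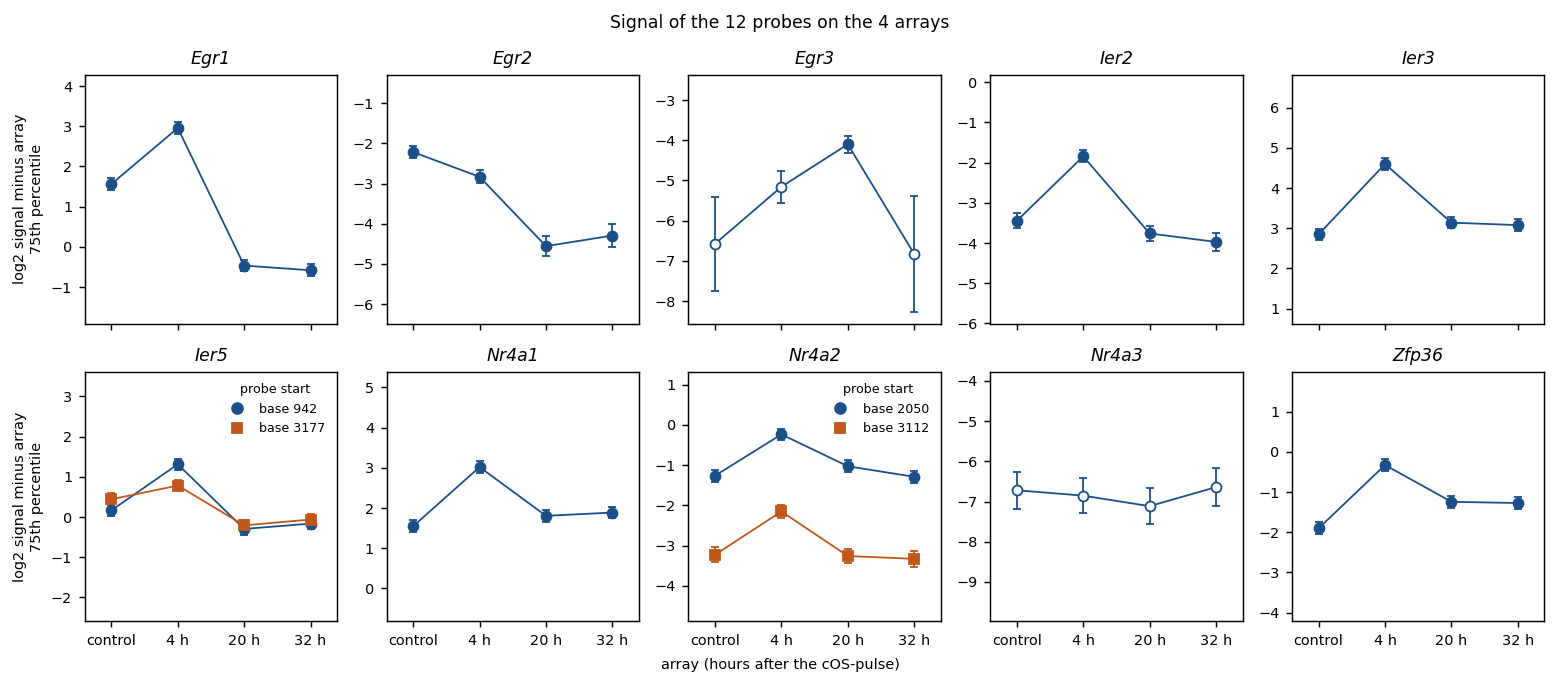
Scaled log2 signal (log2 signal minus the 75th percentile of the array) of the 12 probes on the 4 arrays, 1 panel per gene, each with its own axis of equal span. Filled symbols were well above background and open symbols were not, and bars are the error of the scanner software for the spot. *Egr1*, *Ier2*, *Ier3*, *Ier5*, *Nr4a1*, *Nr4a2* and *Zfp36* were highest at 4 h, *Egr1* and *Egr2* lay below the control at 20 h and 32 h, and *Nr4a3* was open on all 4 arrays.

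EGR proteins are zinc finger factors that bind GC-rich sites and are held back by the corepressors *Nab1* and *Nab2*. The probe of *Egr1* (mm9 chr18:35024395-35024454, plus strand) had a scaled log2 level, that is, the log2 signal minus the 75th percentile of the array, of 1.56 in the control, 2.96 at 4 h, -0.47 at 20 h and -0.58 at 32 h. The error of the scanner software was 0.14 to 0.15 on each array and covers the spot only. *Egr1* was thus highest at 4 h, intermediate in the control and low at both late times. The log2 difference from the control was 1.39 ± 0.20 (2.63-fold higher) at 4 h, above 96.4% of all measured probes. It was -2.03 ± 0.20 (4.08-fold lower) at 20 h and -2.15 ± 0.20 (4.42-fold lower) at 32 h. At 20 h only 0.225% of the measured probes lay below it, and at 32 h 0.130%. From 4 h to 20 h *Egr1* fell by 3.42 on the log2 scale. With the spike-in controls as scale the difference at 4 h was 0.99, just short of 2-fold, whereas the differences at 20 h and 32 h stayed past 2-fold under each of the 11 alternatives that kept this threshold.

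*Egr2* (also Krox20), known for its part in Schwann cell myelination, did not share the rise. Its probe (mm9 chr10:67004798-67004857, plus strand) had scaled log2 levels of -2.22 in the control, -2.83 at 4 h, -4.56 at 20 h and -4.29 at 32 h, with errors of 0.15, 0.16, 0.25 and 0.27. The level was highest in the control and lowest at the late times. The log2 difference was -0.62 ± 0.22 at 4 h, -2.34 ± 0.30 (5.06-fold lower) at 20 h and -2.08 ± 0.32 (4.22-fold lower) at 32 h. At 20 h 0.0880% of the measured probes lay below *Egr2*. The difference at 4 h ranged from -1.02 with the spike-in controls as scale to -0.35 with normexp, so its call as less than 2-fold depended on the scaling. With normexp the late differences were smaller, -1.59 at 20 h and -1.26 at 32 h.

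*Egr3*, known for its part in muscle spindle development, was well above background only at 20 h. The signal of its probe (mm9 chr14:70479222-70479281, plus strand) was 11.6 in the control, 25.5 at 4 h, 81.3 at 20 h and 11.0 at 32 h. The 20 h array was the high one, on 1 spot. Since the other arrays were below the limit, its level at 20 h was at least 1.58-fold above the control, at least 1.79-fold above 4 h and at least 1.55-fold above 32 h. These bounds set the 20 h level against the detection limit of the array with the dim signal.

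NR4A receptors need no known ligand to activate transcription, and their activity follows their amount. *Nr4a1* (Nur77) has a probe at mm9 chr15:101105071-101105130 on the plus strand. Its scaled log2 level was 1.55 in the control, 3.02 at 4 h, 1.81 at 20 h and 1.89 at 32 h, with an error of 0.14 on each array. The 4 h array was the high one, and the late arrays lay slightly above the control, by little more than the error. The log2 difference was 1.47 ± 0.20 (2.77-fold higher) at 4 h, 0.26 ± 0.20 at 20 h and 0.34 ± 0.20 at 32 h. It kept a rise of at least 2-fold at 4 h under each of the 11 alternatives, with 1.07 as the lowest value.

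*Nr4a2* (Nurr1), needed for midbrain dopamine neurons, was measured by 2 probes of the minus strand, starting at base 2050 and base 3112 of the transcript. The probe at base 2050 had scaled log2 levels of -1.26 in the control, -0.24 at 4 h, -1.03 at 20 h and -1.29 at 32 h. The probe at base 3112 had -3.23, -2.15, -3.26 and -3.33 in the same order. Both probes were highest at 4 h and near the control at 20 h and 32 h. Their log2 differences at 4 h were 1.03 ± 0.21 and 1.08 ± 0.24, so the probes differed by less than the error. These rises lay close to the threshold. They were 0.67 and 0.71 with the median as scale and 0.62 and 0.67 with the spike-in controls.

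*Nr4a3* (Nor1) could not be measured. Its probe was spotted 10 times, and none of the 10 spots was well above background on any array. The mean signals were 10.5 in the control, 7.88 at 4 h, 10.1 at 20 h and 12.5 at 32 h, all near the negative controls. The probe lies across 3187 bases of the genome (mm9 chr4:48080690-48083876, plus strand), while it is itself 60 bases long, so it crosses a gap as a spliced transcript does.

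The IER genes are named for their early induction. *Ier2* encodes a small nuclear protein. The scaled log2 level of its probe (mm9 chr8:87186214-87186273, minus strand) was -3.45 in the control, -1.84 at 4 h, -3.76 at 20 h and -3.97 at 32 h, with errors of 0.19, 0.15, 0.18 and 0.23. Only the 4 h array was high. The log2 difference was 1.60 ± 0.24 (3.04-fold higher) at 4 h, -0.31 ± 0.26 at 20 h and -0.53 ± 0.29 at 32 h. The sign at 20 h turned with no scaling, to 0.017.

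*Ier3* (IEX-1) encodes a stress-inducible protein that modulates apoptosis and ERK signaling. Its probe (mm9 chr17:35959528-35959587, plus strand) had scaled log2 levels of 2.85 in the control, 4.60 at 4 h, 3.14 at 20 h and 3.08 at 32 h, with an error of 0.14 on each array. The 4 h array was high and the other 3 lay close together. The log2 difference at 4 h was 1.75 ± 0.20 (3.36-fold higher), the largest among the members and above 98.2% of all measured probes. The late differences were 0.29 ± 0.20 at 20 h and 0.23 ± 0.20 at 32 h, and their sign held under all 11 alternatives.

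*Ier5*, which encodes a protein known to promote HSF1 activity, was measured by 2 probes of the minus strand that disagreed in size. The probe at base 942 of the transcript (mm9 chr1:156945765-156945824) had scaled log2 levels of 0.17 in the control, 1.31 at 4 h, -0.30 at 20 h and -0.16 at 32 h. The probe at base 3177 (mm9 chr1:156943530-156943589) had 0.44, 0.78, -0.21 and -0.062. Both were highest at 4 h, with the control next and the late arrays lowest. The log2 difference at 4 h was 1.15 ± 0.20 (2.21-fold higher) at base 942 and 0.34 ± 0.20 (1.27-fold higher) at base 3177. At 20 h the probes lay closer, with -0.46 ± 0.20 and -0.65 ± 0.20, and at 32 h with -0.33 ± 0.20 and -0.50 ± 0.20. The sign of the probe at base 3177 at 4 h turned with the median (-0.019) or the spike-in controls (-0.061) as scale, and the probe at base 942 fell below 2-fold there, to 0.78 and 0.74. The sequence of the probe at base 942 is shown, since only this probe was past 2-fold, and it reads without a stop codon in 2 of 3 frames.
*Ier5* base 942: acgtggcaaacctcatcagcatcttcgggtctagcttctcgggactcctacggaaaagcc

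*Zfp36* encodes tristetraprolin (TTP), which binds AU-rich elements in the 3′ ends of cytokine and immediate early mRNAs, its own included, and speeds their decay. Its probe (mm9 chr7:29161940-29161999, minus strand) had scaled log2 levels of -1.90 in the control, -0.33 at 4 h, -1.24 at 20 h and -1.27 at 32 h, with errors of 0.15, 0.15, 0.15 and 0.15. The 4 h array was the highest, and both late arrays stayed above the control. The log2 difference was 1.57 ± 0.21 (2.98-fold higher) at 4 h, 0.66 ± 0.21 (1.58-fold higher) at 20 h and 0.63 ± 0.22 (1.55-fold higher) at 32 h. The late differences did not reach 2-fold, but lay above 97.5% of the measured probes at 20 h and 96.5% at 32 h. Among the 10 measured probes *Zfp36* had the highest difference at both late times, and *Nr4a1* came next at 32 h with 0.34.

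The AU-rich motif TATTTAT, the core that TTP binds in RNA, was searched on the transcript strand of the probes, as a search chosen after the data were seen. It was found in 2 of the 12 member probes, those of *Ier3* and *Zfp36*, and in 1.22% of all 39429 probes. The match in *Ier3* lies in mm9 chr17:35959532-35959561 on the plus strand, and the match shown for *Zfp36*, 1 of 2 in its probe, in mm9 chr7:29161968-29161997 on the minus strand. In these stretches of 30 bases the capitals mark the motif.
*Ier3*: gtaacacagaTATTTATtacgatttatagg
*Zfp36*: atgacgacttTATTTATtgtattaagattt

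By shape, 7 member probes were at least 2-fold higher at 4 h and within 2-fold of the control at 20 h and 32 h. They are 7 of the 10 member probes detected on all arrays, and the shape was held by 1587 (8.06%) of all 19697 probes detected on all arrays. *Ier5* held it by its probe at base 942 only. With the median, the spike-in controls or no scaling, the probes of *Ier5* and *Nr4a2* lost the 4 h call and with it the shape. The shape of *Egr1*, at least 2-fold higher at 4 h and at least 2-fold lower at both late times, was held by 10 probes (0.0508%), *Egr1* included. It was set by the calls of *Egr1* itself, which lost it with the spike-in controls as scale (0.99 at 4 h). *Hbegf* (0.97, -1.79 and -1.55 at 4 h, 20 h and 32 h) and *Plaur* (1.55, -1.17 and -0.94) followed a similar course and just missed a threshold. The shape of *Egr2*, within 2-fold at 4 h and at least 2-fold lower at both late times, was held by 167 (0.848%). *Egr2* lost it with the spike-in controls as scale (-1.02 at 4 h).

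The probes most like each member were found by the root mean square (RMS) difference of the 3 log2 differences from the control, over 17286 probes of other genes. For *Egr1* they were *4930557B15Rik*, *Slc16a9* and *Slc40a1*, at RMS differences of 0.30, 0.35 and 0.36, and 7 probes lay within 0.5. For *Egr2* they were *Bglap2*, *Pmepa1* and *Cyr61* at 0.16, 0.22 and 0.23, and 18 probes lay within 0.5. *Egr1* and *Egr2* thus had few probes near them. *Ier2* was nearest to *Tnfaip6*, *Btg1* and *Prmt6* (0.065, 0.074 and 0.075), *Ier3* to *Tnks2*, *Ubap1* and *Ttc16* (0.027, 0.038 and 0.046), and *Ier5* to *Hnrnpa2b1*, *Fgfr4* and *2610035D17Rik* (0.037, 0.048 and 0.054). *Nr4a1* was nearest to *Gdnf*, *Ppard* and *Gabarapl1* (0.030, 0.041 and 0.042), *Nr4a2* to *C130045F17Rik*, *Rbm12b* and *Zfp871* (0.032, 0.035 and 0.038), and *Zfp36* to *C1galt1*, *Mast1* and *Rab20* (0.030, 0.070 and 0.083). Between 701 and 6043 probes lay within 0.5 of these 6 members, the fewest around *Zfp36* and the most around *Nr4a2*.

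The promoters of the members were searched on both strands for motifs of the factors that are known to drive or follow them. The windows ran from 250 bases before to 50 bases after the start given by RefSeq (GRCm38.p6). Only the 250 bases before the start were searched, in members and in all genes, so a match after it would not be seen. A promoter was found for 7 of the 10 genes, *Egr2*, *Ier3*, *Ier5*, *Nr4a1*, *Nr4a2*, *Nr4a3* and *Zfp36*. *Egr2* had 5 start windows and each of the others 1, so *Egr2* had more sequence in which to match. The shares of all 27025 genes with a promoter are given beside each motif, and a match is a description only. The CArG box, bound by SRF, was found in *Egr2* and *Zfp36* and in 1.62% of all genes. The short cAMP response element TGACG was found in *Egr2*, *Nr4a1*, *Nr4a2* and *Nr4a3* and in 19.8% of all genes, so all NR4A members held it. Its longer form TGACGTCA was in no member and in 1.77% of all genes. The EGR site GCGGGGGCG was found in *Nr4a1* and *Zfp36* and in 2.93% of all genes, and the form GCGTGGGCG in no member and in 0.622%.

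The ETS core CCGGAAG was found in *Zfp36* alone (7.83% of all genes), the NF-kappa-B site in *Ier3* alone (4.46%), the E-box CACGTG in *Egr2* alone (6.86%, in another start window than its CArG box and TGACG) and TATAAA in *Nr4a2* alone (14.3%). The antioxidant response element core TGACNNNGC, which can overlap TGACG, was found in *Egr2*, *Nr4a2* and *Nr4a3* (11.5%). No member held the AP-1 site TGANTCA (7.82%), the NR4A site AAAGGTCA (1.55%) or the heat shock element (0.514%), and *Ier5* held none of the 13 motifs. The stretches below hold single matches to the CArG box, TGACG, NF-kappa-B and EGR motifs, with the match in capitals. Binding to them was not tested. They lie at chr10:67537787-67537816 (plus strand) for the CArG box of *Egr2*, at chr7:28379267-28379296 (minus strand) for that of *Zfp36*, and at chr7:28379314-28379343 (minus strand) for the EGR site of *Zfp36*. The EGR site of *Nr4a1* lies at chr15:101266776-101266805 (plus strand) and reads on the opposite strand. The TGACG matches lie at chr2:57124097-57124126 (minus strand) for *Nr4a2* and chr4:48045088-48045117 (plus strand) for *Nr4a3*, and the NF-kappa-B site of *Ier3*, also on the opposite strand, at chr17:35821611-35821640 (plus strand).
*Egr2* CArG box: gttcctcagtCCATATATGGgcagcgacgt
*Zfp36* CArG box: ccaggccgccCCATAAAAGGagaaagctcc
*Zfp36* EGR site: gagctacgccGCGGGGGCGcgtcccggaag
*Nr4a1* EGR site: gcgtcagtggCGCCCCCGCccctctccatg
*Nr4a2* TGACG: tgacggggccgcTGACGcgcttggccgcgg
*Nr4a3* TGACG: atgtcgtcacatTGACGtctcgcattccag
*Ier3* NF-kappa-B site: tgcgaagggcGGAGTTCCCCccggcccggc

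*Egr2* and *Zfp36*, which both held a CArG box, had log2 differences of -0.62 and 1.57 at 4 h. *Nr4a1* and *Nr4a2*, both with TGACG, stood at 1.47 and 1.03, and *Nr4a3* with the same motif was not above background.

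Of 6 genes related to the members by family or name, *Egr4* was not above background on any array, and none of the 5 others was at least 2-fold higher or lower at any time. The log2 differences at 4 h were 0.88 ± 0.20 for *Ier3ip1*, which encodes a protein named for its interaction with IER3 (0.84 by its other probe), 0.19 ± 0.20 for *Zfp36l1*, 0.13 ± 0.21 for *Zfp36l3*, -0.52 ± 0.20 for *Ier5l* and -0.59 ± 0.20 for *Zfp36l2*. For *Ier5* the brightest probe is that at base 942, and only through its 4 h level. The median of the relatives was 0.13 (-0.28 with the spike-in controls as scale), that of the members, by the brightest probe of each gene, 1.43, and that of all 15806 genes 0.17. The median of the members minus that of all genes was 1.26, and 1.05 with normexp. *Zfp36l1* and *Zfp36l2*, which encode proteins that also bind AU-rich elements, stood at 0.38 and -0.63 at 32 h, where *Zfp36* stood at 0.63.

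**Figure D2:**
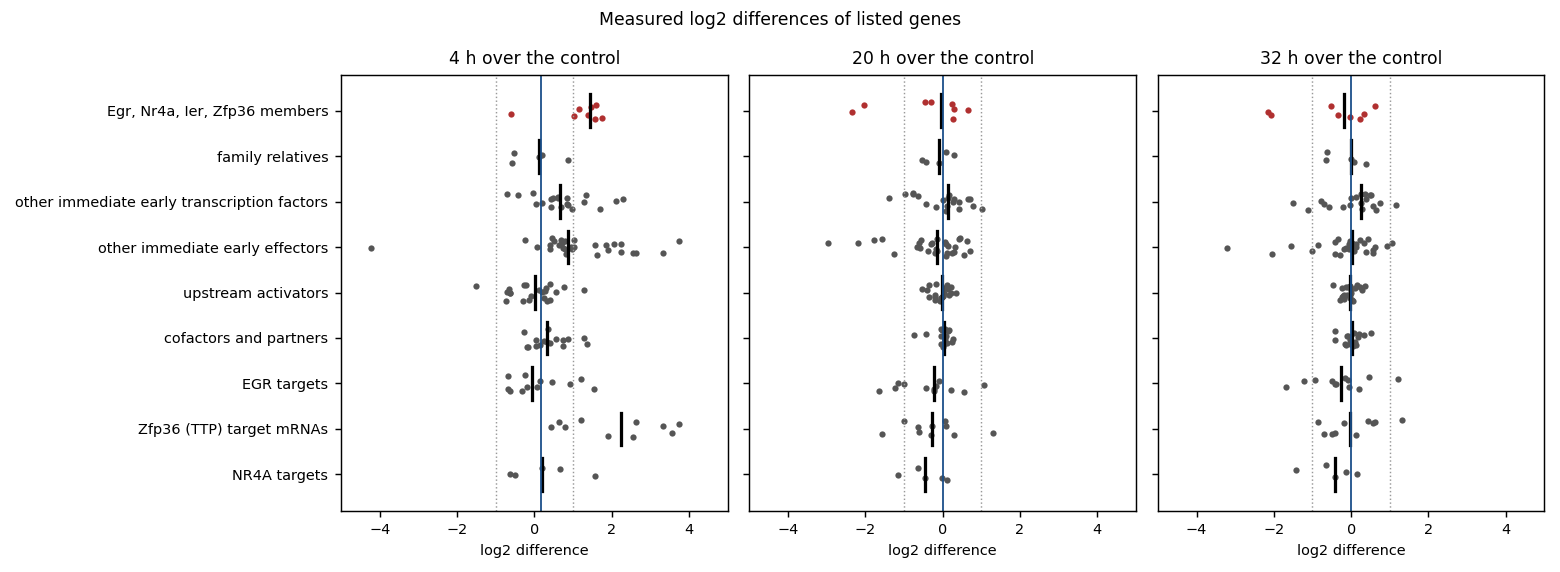
Measured log2 differences from the control at 4 h, 20 h and 32 h for the members (red) and the genes of 8 other lists (grey), 1 point per gene by its brightest probe, spread vertically for sight. Black bars are list medians, the blue line is the median over all genes, and dotted lines mark 2-fold. At 4 h the medians of the members (1.43) and of the *Zfp36* target mRNAs (2.23) lay furthest right, and at 20 h *Egr1* and *Egr2* lay left of the dotted line.

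Other immediate early transcription factors rose in part. Of 22 such genes, 20 were measured at 4 h, of which 5 were at least 2-fold higher and none lower. Of all measured genes, 8.25% were higher and 8.14% lower. The median of the list was 0.66, and ran from 0.25 to 0.77 over the alternatives. The spike-in controls as scale lowered all values at 4 h by 0.40, which took *Klf5* (1.35) and *Maff* (1.30) below 2-fold. *Fosb* (2.29 ± 0.23), *Klf4* (2.11 ± 0.20) and *Csrnp1* (1.71 ± 0.20) had the highest measured differences, and *Fos* was at least 4.02-fold higher, since it was not well above background in the control. *Junb* stood at 0.84 ± 0.23, *Jun* at -0.02 ± 0.20, *Snai1* at -0.43 ± 0.20 and *Klf10* at -0.70 ± 0.20, and *Atf3* was not above background on any array. At 32 h 1 gene of this list was at least 2-fold higher, *Nfil3* (1.15, and 1.01 at 20 h), and 2 were lower, *Snai1* (-1.52, and -1.39 at 20 h) and *Klf4* (-1.13, and -0.78 at 20 h), where 1.08% and 1.62% of all measured genes were.

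Of 32 other immediate early effectors, 30 were measured at 4 h, of which 13 were at least 2-fold higher and 1 lower, beside the same 8.25% and 8.14%, with a median of 0.88. It was 0.48 with the spike-in controls as scale. The probes of *Trib1*, counted as higher with 1.61, disagreed, with 1.61 by the probe at base 3033 and -1.61 by that at base 2972. *Ptgs2* (3.73 ± 0.065), *Il6* (3.34 ± 0.20) and *Cxcl1* (2.63 ± 0.20) were highest. *Ctgf*, an SRF target, was lowest with -4.22 ± 0.28, then *Cyr61* with -0.25 ± 0.20 and *Gadd45g* with 0.079 ± 0.20. At 20 h, none was at least 2-fold higher and 5 were lower, where 0.729% and 2.18% of all measured genes were, *Ctgf* (-2.96) and *Cyr61* (-2.18) among them, beside *Egr1* (-2.03) and *Egr2* (-2.34). *Dusp1*, a phosphatase that ends MAP kinase signaling, stood at 0.79 ± 0.20 at 4 h.

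Of the 26 upstream activators, 22 were measured at 4 h, of which 1 was at least 2-fold higher by its brightest probe and 1 lower, beside 8.25% and 8.14% of all measured genes. The median was 0.017, and ran from -0.39 to 0.21 over the alternatives. Less bright probes were also at least 2-fold higher for *Mef2d* (1.79 and 1.28), *Atf2* (1.23), *Mef2a* (1.20) and *Elk4*. *Creb1* was the higher, with 1.29 ± 0.22, but by its probe at base 8359 it stood at 0.078. *Rps6ka3* (0.78 ± 0.21) and *Atf1* (0.57 ± 0.20) came next, but the 3 probes of *Rps6ka3* disagreed, with 0.75 and -0.40 by the others. *Elk3*, an ETS partner of SRF that can act as a repressor, was the lower, and all 3 of its probes were at least 2-fold lower, with -1.50, -1.02 and -1.82. *Rps6ka4* stood at -0.74 ± 0.20 and *Mapk9* at -0.71 ± 0.20, and at -0.11 by its other probe. *Srf* stood at -0.14 ± 0.20 by its brightest probe and 0.82 by the other, *Elk1* at 0.32 ± 0.20, and *Elk4* at 0.41, 0.73 and 1.25 by its 3 probes.

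Of 16 cofactors and partners, 2 were at least 2-fold higher at 4 h and none lower, beside 8.25% and 8.14% of all measured genes. The median was 0.34, and -0.065 with the spike-in controls as scale. That scale lowered all values at 4 h by 0.40, so that neither of the 2 higher genes reached 2-fold. They were *Ppp2r2a* (1.37 ± 0.20), of the phosphatase that acts on TTP, and *Dcp2* (1.28 ± 0.26), an mRNA decapping enzyme, and *Ppp2ca* came next with 0.88 ± 0.20, but with -0.81 by its other probe. The lowest were *Rxra* (-0.27 ± 0.21), a partner of NR4A receptors, *Nab2* (-0.19 ± 0.20) and the exonuclease *Xrn1* (-0.17 ± 0.21). *Nab1* stood at 0.33 ± 0.20 at 4 h, and at 20 h, where *Egr1* and *Egr2* were low, *Nab1* stood at -0.75 and *Nab2* at -0.42.

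Genes known as EGR targets were mixed. Of 17, 12 were measured at 4 h, 2 were at least 2-fold higher and none lower, where 8.25% and 8.14% of all measured genes were. The median was -0.052, and ran from -0.46 to 0.10 over the alternatives. *Plaur* (1.55 ± 0.20) and *Vegfa* (1.20 ± 0.20) were highest, and *Fn1* (-0.68 ± 0.20) and *F3* (-0.63 ± 0.20) were among the lowest. At 20 h 4 of the 12 were at least 2-fold lower, where 2.18% of all measured genes were, and *Plaur* stood at -1.17. These are the times at which *Egr1* and *Egr2* were low, and whether they bear on each other was not tested.

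Among mRNAs known as targets of TTP, 10 of 17 were measured at 4 h, and 7 of these were at least 2-fold higher and none lower, where 8.25% and 8.14% of all measured genes were. The median of the 10 measured genes was 2.23, but 9 of the 17 genes are also on the lists of immediate early genes. *Ptgs2*, *Cdkn1a* (3.57 ± 0.065) and *Il6* were highest, and *Myc* (0.43 ± 0.20), *Ccl2* (0.63 ± 0.065) and *Dusp1* lowest. At 20 h and 32 h, when *Zfp36* stood at 0.66 and 0.63, the medians of these mRNAs were -0.28 and -0.037. Over the alternatives these medians ran from -0.30 to 0.048 and from -0.19 to 0.14, so their sign turned. Of the measured genes only *Cdkn1a* was at least 2-fold higher at these times by its brightest probe, with 1.30 and 1.32. Its probes disagreed, with -0.63 and -0.49 at these times by the probe at base 55, and bounds of at least 1.29 and 1.39 by that at base 147. At 20 h 2 genes of the list were at least 2-fold lower, *Lif* (-1.58) and *Vegfa*, where 2.18% of all measured genes were.

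Of 9 genes known as NR4A targets, 5 were measured at 4 h. Their median was 0.20, and ran from -0.20 to 0.68 over the alternatives. *Bcl2l11*, a proapoptotic gene, was the only 1 at least 2-fold higher, with 1.58 ± 0.24, where 8.25% of all measured genes were, then *Runx1* with 0.68 ± 0.20 and *Spp1* with 0.20 ± 0.20, and *Txnrd2* (-0.64 ± 0.20) and *Ucp3* (-0.49 ± 0.24) were lowest. *Spp1* was at least 2-fold lower at 20 h, with -1.16, and at 32 h, with -1.42, where 2.18% and 1.62% of all measured genes were. At these times *Nr4a1* and *Nr4a2* were within 2-fold of the control. The spike-in controls and no scaling raised all values at 20 h by 0.20 and 0.33, and each took *Spp1* below 2-fold there.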

How the data were processed

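Arrays were 1-color Agilent Mouse GE 4x44K v2. The authors deposited spot intensities from Agilent Feature Extraction (10.7.3.1) with the background subtracted, and a linear table in which, by a check of 44397 spots, each array differs from these by 1 divisor (column medians 0.0590, 0.0757, 0.0546 and 0.0587). From the deposited intensities, log2 signals were averaged over the unflagged spots of a probe, and each array was centered on its 75th percentile. The scanner software marked 125 to 161 spots per array as outliers, and none was saturated. A probe counted as above background when at least 50% of its spots were flagged so. Differences were measured where both arrays were above background, and taken as bounds where 1 was. Errors are propagated from the scanner software. The members and lists were chosen with earlier results of these data known. Named were all members, up to 3 of the highest and up to 3 of the lowest measured genes of each list at 4 h, the relatives, *Nab1*, *Nab2*, *Srf*, *Elk1*, *Elk3*, *Elk4*, *Fos*, *Fosb*, *Jun*, *Junb*, *Atf3* and *Dusp1*, and the 3 probes most like each member; other genes named were chosen after their values were seen. The alternatives were other scalings between arrays, normexp (offset 50, limma 3.58.1, R 4.3.3), other detection rules, flagged spots kept, other thresholds and the deposited table. The SAM analysis of the study was not run, since each condition had 1 array. The steps were tested on simulated data. Python 3.11.15, numpy 2.4.6, pandas 2.3.3 and matplotlib 3.10.9 were used.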

Additional observations from a re-analysis of the deposited data

Results flagged for a closer look

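*Egr1* was past the 2-fold threshold in opposite directions at different times after cOS-pulse. Its log2 difference from the control was 1.39 at 4 h, -2.03 at 20 h and -2.15 at 32 h, each from 1 array against the same control array. With the spike-in controls as scale the 4 h value was 0.99, below the threshold. The difference between the time points was not tested, since there were no replicates.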

How the results depend on the processing

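No paired analysis was possible because each condition had 1 array, and for the same reason no replicate could be left out. Relative to the 75th percentile, the median over all genes at 4 h moved by -0.36 with the median as scale, -0.19 with quantile normalization, -0.12 with the percentile over probes seen on every array, -0.40 with the 8 spike-in controls and -0.28 with no scaling. At 20 h it moved by 0.10, 0.020, -0.014, 0.20 and 0.33, and at 32 h by 0.029, 0.019, -0.0098, 0.16 and 0.18. Of all probes past 2-fold at 4 h, 57.8% were higher, and 28.1%, 42.1%, 46.7%, 25.6% and 34.0% with these scalings.

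The 2 probes called lower at 20 h and the 2 at 32 h, of *Egr1* and *Egr2*, were called under every alternative tried, the 3-fold threshold included, and 1.5-fold made 3 at 20 h. The 8 member probes higher at 4 h became 5 with the median or no scaling, 4 with the spike-in controls and 2 at 3-fold. They became 7 with quantile normalization, 6 with the percentile over probes seen on every array or normexp, and 9, with *Egr3*, with no detection filter or the flag for positive and significant signals. *Ier2* and *Ier3* were among them each time. The median, the spike-in controls and no scaling lower all values at 4 h by construction. *Egr2* became 1 member probe lower at 4 h with the spike-in controls and at 1.5-fold. *Egr3* became 1 probe higher at 20 h with no detection filter and with the flag for positive and significant signals, and with *Zfp36* made 2 at 1.5-fold, where *Zfp36* was 1 higher at 32 h. *Egr3* was also 1 probe higher at 20 h than at 4 h with the median, quantile normalization, the spike-in controls, no scaling, no detection filter, the flag for positive and significant signals and 1.5-fold, and 1 different between 20 h and 32 h with the last 3 of these. The 7 member probes lower at 20 h than at 4 h became 4 with the median, the spike-in controls or 3-fold, and 3 with no scaling. The median of the members at 4 h, 1.43, became 1.07 with the median, 1.03 with the spike-in controls, 1.15 with no scaling and 1.21 with normexp. At 20 h, -0.040 became 0.29 with no scaling and 0.23 with the flag for positive and significant signals, which adds *Egr3*. The causes of the other changes were not tested. Of the differences of single member probes over all alternatives, 90 moved by at least the scanner error, 489 did not, and no called value changed sign.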

Other observations

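These values rest on 1 array per condition, and the errors cover the spot only, so differences between cultures were not measured. The control was taken at a time labelled 4 h, and no control of 20 h or 32 h was used here. A bulk level does not tell fewer cells with an mRNA from less mRNA per cell. mRNA was measured at 3 times, so a peak before 4 h would not be seen, and protein was not measured. Each of 8 genes had 1 probe, and the 2 probes of *Ier5* differed at 4 h, with 1.15 and 0.34 on the log2 scale.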
